A study of Mus musculus with 9 samples.

Results

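A set of 10 genes of vascular mural cells, the smooth muscle cells and pericytes that wrap the endothelium, was followed in whole aortae of mice. The genes were taken by symbol from the deposited count table: Notch3, Jag1, Heyl and Hes1 of the Notch pathway, Pdgfrb, Cspg4 and Mcam on the cell surface, and Rgs5, Kcnj8 and Abcc9, which act on contraction. All 10 were found among the 55453 genes listed, and all 10 were among the 19412 that passed the filter on low counts. The mice were C57BL/6J, with 3 per genotype and 1 library per mouse. In Itga8-Cre mice the recombinase CreERT2, which tamoxifen activates, is tied to Itga8, an integrin gene active in smooth muscle. In Myh11-Cre mice, the established line, CreERT2 is tied to the gene of the myosin heavy chain of smooth muscle. Wild Type mice carry neither, and the labels used here give no sex, age, tamoxifen treatment or batch. The labels number the mice. The p-values of fold changes therefore rest on the spread between mice within genotypes, estimated jointly over the 3 genotypes in 1 fit.

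Notch signalling passes between touching cells. A ligand such as Jag1 on 1 cell opens a Notch receptor on the next, and the freed receptor tail joins the DNA-binding protein Rbpj to switch on genes of the Hes and Hey repressor families. In arteries Notch3 is the receptor of mural cells, Jag1 is made by endothelium and by smooth muscle itself, and the signal maintains the smooth muscle state. Pericytes of small vessels are recruited through the receptor Pdgfrb and are commonly recognised by Cspg4, Rgs5, Kcnj8 and Abcc9. Several of these genes are also active in smooth muscle of large arteries, so in whole aorta they are not markers of pericytes alone.

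Libraries held 31419238 to 42497543 counts. Levels are in CPM, which sets the counts of each library to 1 common total after TMM normalization. As a check of the genotypes, Itga8 ranged over 147 to 475 CPM (Wild Type), 54.1 to 76.5 CPM (Itga8-Cre) and 72.4 to 300.3 CPM (Myh11-Cre), and Myh11 over 986 to 1371, 616 to 745 and 460.5 to 1114 CPM in the same order. Smooth muscle RNA varied widely within Wild Type and Myh11-Cre: the sum of Acta2, Tagln, Cnn1, Mylk, Smtn and Lmod1 ran from 993 to 2069.9 CPM in Wild Type and 541 to 1478 CPM in Myh11-Cre. In Itga8-Cre mice this sum ran from 673 to 879 CPM, below every Wild Type library. Of the summed levels of other cell markers, those of 6 mesothelial markers lay higher in Itga8-Cre (63.8 to 94.7 CPM) and Myh11-Cre (88.3 to 177 CPM) than in Wild Type (26.4 to 57.1 CPM). Those of 9 macrophage markers lay higher in Itga8-Cre (971 to 1501 CPM) than in Wild Type (542 to 741 CPM) and were 633 to 1186 CPM in Myh11-Cre. Those of 15 endothelial markers were 1055 to 1109 CPM in Wild Type, 839.7 to 1095 CPM in Itga8-Cre mice and 989 to 1048 CPM in Myh11-Cre. Those of 9 nerve and glial markers were 322 to 583 CPM in Wild Type, 304 to 408 CPM in Itga8-Cre and 198 to 324 CPM in Myh11-Cre. In Myh11-Cre, 5 of these 9 were lower than Wild Type at an unadjusted p under 0.05 (edgeR, 0 called), against 9.48% of all genes. At the same p, 5 of 6 mesothelial markers were higher in Myh11-Cre (6.93% of all genes) and 2 of 6 in Itga8-Cre (3.97%). Of 9 macrophage markers, 4 were higher in Itga8-Cre and 0 in Myh11-Cre. Each of these markers had counts in all 9 libraries, and their part in the results below was not tested. In whole tissue, fewer cells of a type and less RNA per cell cannot be told apart.

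Set per length, Rgs5 was by far the most abundant of the 10 transcripts. Over all 9 libraries Rgs5 stood at 97.0 ± 16.3 CPM per kb of exon (SD, n = 9), followed by Mcam at 37.4 ± 9.70 CPM per kb. Pdgfrb at 16.1 ± 1.92, Abcc9 at 15.8 ± 3.44 and Cspg4 at 14.6 ± 3.10 CPM per kb came next and did not differ beyond their spread. Notch3 at 11.3 ± 1.47 CPM per kb and its ligand Jag1 at 9.41 ± 0.786 CPM per kb followed, with overlapping intervals of mean ± SD, and Jag1 overlapped Kcnj8 at 8.43 ± 1.40 CPM per kb. The 2 Notch targets Hes1 and Heyl were lowest and did not differ beyond their spread, at 4.95 ± 0.630 and 4.92 ± 1.09 CPM per kb. The libraries differed least in Jag1, with a coefficient of variation of 8.35% over all 9, and most in Mcam with 26.0%, whereas Acta2 varied by 61.8%.

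Notch3, Cspg4 and Mcam had lower levels in each of the 6 Cre libraries than in any Wild Type library. Their promoters are shown because they were low together, beside those of the chromosome 6 neighbours Kcnj8 and Abcc9, which hold the motif searched. RefSeq promoter sequences (GRCm38.p6, 250 bases before to 50 after the start) were matched for 7 of the 10 genes. Each is written 5′ to 3′ on the strand of the gene, and capitals mark TGGGAA, the core of the Rbpj binding motif, searched on both strands.
Notch3 (chr17:32166841-32167140, minus strand): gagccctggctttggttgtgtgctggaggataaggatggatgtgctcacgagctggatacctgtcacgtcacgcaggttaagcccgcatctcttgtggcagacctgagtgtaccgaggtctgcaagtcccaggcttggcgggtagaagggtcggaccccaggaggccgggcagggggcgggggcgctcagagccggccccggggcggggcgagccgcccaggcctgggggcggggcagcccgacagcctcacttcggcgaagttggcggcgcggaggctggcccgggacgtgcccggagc
Cspg4 (chr9:56864854-56865153, plus strand): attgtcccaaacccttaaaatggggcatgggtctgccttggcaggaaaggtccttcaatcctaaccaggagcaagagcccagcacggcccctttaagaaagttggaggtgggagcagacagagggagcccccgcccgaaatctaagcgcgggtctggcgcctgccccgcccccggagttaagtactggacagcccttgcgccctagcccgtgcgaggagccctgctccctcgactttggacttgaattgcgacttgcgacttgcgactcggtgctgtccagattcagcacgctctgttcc
Mcam (chr9:44134408-44134707, plus strand): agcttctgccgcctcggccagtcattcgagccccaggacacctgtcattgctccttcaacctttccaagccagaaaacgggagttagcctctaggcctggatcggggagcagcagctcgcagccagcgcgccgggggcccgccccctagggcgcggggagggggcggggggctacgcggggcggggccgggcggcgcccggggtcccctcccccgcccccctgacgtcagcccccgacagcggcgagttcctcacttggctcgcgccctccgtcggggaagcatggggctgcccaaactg
Kcnj8 (chr6:142571565-142571864, minus strand): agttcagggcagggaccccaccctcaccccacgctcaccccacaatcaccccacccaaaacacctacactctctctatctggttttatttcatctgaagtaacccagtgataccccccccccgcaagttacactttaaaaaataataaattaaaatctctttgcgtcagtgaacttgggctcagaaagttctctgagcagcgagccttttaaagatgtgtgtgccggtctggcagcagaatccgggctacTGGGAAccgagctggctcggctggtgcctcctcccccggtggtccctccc
Abcc9 (chr6:142702225-142702524, minus strand): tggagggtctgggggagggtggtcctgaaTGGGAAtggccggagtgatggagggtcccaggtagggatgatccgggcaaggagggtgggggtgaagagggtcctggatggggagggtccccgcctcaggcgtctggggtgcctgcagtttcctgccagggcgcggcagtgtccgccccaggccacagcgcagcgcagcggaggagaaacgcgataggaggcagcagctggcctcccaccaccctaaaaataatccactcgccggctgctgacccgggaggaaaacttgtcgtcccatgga
The core was present once in the Kcnj8 window, beginning at position 1, the first transcribed base, and once in the Abcc9 window, at position -221. It was found in neither strand of the Notch3, Cspg4, Mcam, Jag1 or Rgs5 windows, and 25.6% of 32817 promoters of this length hold it. The longer GTGGGAA, which contains the core and is held by 6.39% of promoters, was in 0 of the 7 windows. CACNAG, a motif of Hes repressors held by 42.5% of promoters, occurred at 2 places in Notch3, beginning at positions -204 and -159, and once each in Kcnj8 and Rgs5. CACGTG, held by 7.15% of promoters, was in 0 of the 7. GC content was 70% for Notch3, 60% for Cspg4 and 72.7% for Mcam, against a median of 52.7% over all promoters. It was 65.7% for Abcc9, above Cspg4, 55.7% for Jag1, 53.3% for Kcnj8 and 52.3% for Rgs5. These are descriptions of letters in a short window and say nothing of where any factor binds.

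The receptor Notch3 (ENSMUSG00000038146.8, chromosome 17, 32120820 to 32166852, GRCm38) stood at 98.3, 110.2 and 109.5 CPM in Wild Type mice 1, 2 and 3. It stood at 91.2, 86.3 and 81.2 CPM in Itga8-Cre mice and at 84.0, 81.4 and 80.6 CPM in Myh11-Cre. Every Cre library lay below every Wild Type library, and the 3 Myh11-Cre mice were within 4 CPM of each other. The level was 1.23-fold lower in Itga8-Cre (86.2 ± 4.96 against 106 ± 6.70 CPM, log2 fold change -0.30, SE 0.09) and 1.29-fold lower in Myh11-Cre (82.0 ± 1.76 CPM, -0.37, SE 0.09). Neither passed the edgeR test over all genes (adjusted p = 0.699 and 0.218, unadjusted 0.00858 and 0.0025). DESeq2 called Notch3 in Myh11-Cre (adjusted p = 0.0112), where the alternatives ran from 0.0112 to 0.598. An antisense gene, Gm17276, overlaps Notch3 exons and had 193 counts over all 9 libraries, against at least 2754 counts of Notch3 in each.

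Jag1 (ENSMUSG00000027276.7, chromosome 2, 137081456 to 137116644), the ligand, was at 58.7, 55.0 and 59.8 CPM in Wild Type, 57.1, 49.5 and 49.0 CPM in Itga8-Cre mice and 60.9, 53.5 and 50.1 CPM in Myh11-Cre. The groups overlapped, and the log2 fold changes of -0.16 (SE 0.10) and -0.08 (SE 0.10) against Wild Type were the smallest among the genes lower in both lines.

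The targets Heyl and Hes1 lay on opposite sides of 0 against Wild Type, and the difference between them was not tested. Heyl (ENSMUSG00000032744.4, chromosome 4, 123233556 to 123249875), a repressor switched on by Notch in smooth muscle, was at 34.1, 30.9 and 23.7 CPM in Wild Type, 24.7, 25.4 and 18.0 CPM in Itga8-Cre mice and 16.4, 26.0 and 27.2 CPM in Myh11-Cre. Its log2 fold changes were -0.38 (SE 0.23) and -0.35 (SE 0.23), with overlapping libraries and a wider error than for Notch3. The first was -0.25 without Itga8-Cre 3 and -0.10 with a score of contractile genes as covariate, and the second was -0.15 without Myh11-Cre 1 and -0.23 without Wild Type 1. Hes1 (ENSMUSG00000022528.8, chromosome 16, 30064384 to 30067796), which answers many signals besides Notch, was at 10.4, 9.94 and 8.07 CPM in Wild Type, 9.98, 11.1 and 9.79 CPM in Itga8-Cre mice and 8.24, 11.7 and 11.5 CPM in Myh11-Cre. Its log2 fold changes were 0.12 (SE 0.17) and 0.14 (SE 0.17), on the other side of 0 from Heyl. Neither gene passed in either comparison (adjusted p from edgeR 0.454 to 0.857).

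Pdgfrb (ENSMUSG00000024620.11, chromosome 18, 61045150 to 61085061), the receptor through which endothelial PDGF-B holds pericytes, was at 101.7, 90.2 and 92.0 CPM in Wild Type and 81.1, 88.3 and 73.3 CPM in Itga8-Cre. These groups did not overlap, though Itga8-Cre 2 came within 2 CPM of Wild Type 2. In Myh11-Cre it was at 72.5, 92.9 and 100.3 CPM, so mouse 1 lay lowest of all 9 and the other 2 lay among Wild Type. The log2 fold changes of -0.23 (SE 0.14) and -0.10 (SE 0.13) did not pass (edgeR adjusted p = 0.707 and 0.737), and the second turned to 0.030 without Myh11-Cre 1.

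Cspg4 (ENSMUSG00000032911.6, chromosome 9, 56865033 to 56899870), the NG2 proteoglycan that binds PDGF and matrix on mural cells, was at 249.6, 199 and 194 CPM in Wild Type. It was at 163, 142 and 126 CPM in Itga8-Cre mice and 148, 166 and 181 CPM in Myh11-Cre, below every Wild Type library in all 6. The level was 1.49-fold lower in Itga8-Cre (144 ± 18.1 against 214 ± 30.8 CPM, log2 fold change -0.57, SE 0.15) and 1.30-fold lower in Myh11-Cre (165 ± 16.3 CPM, -0.38, SE 0.15). Neither passed over all genes in edgeR (adjusted p = 0.699 and 0.273).

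Mcam (ENSMUSG00000032135.15, chromosome 9, 44134469 to 44142727), the adhesion molecule CD146 found on mural and endothelial cells, showed the largest differences of the 10 genes against Wild Type. It was at 180.5, 149 and 160.5 CPM in Wild Type, 100.5, 132 and 83.9 CPM in Itga8-Cre mice and 102, 117 and 100.7 CPM in Myh11-Cre. Mouse 2 of Itga8-Cre came nearest to Wild Type, and still lay below all 3. The level was 1.55-fold lower in Itga8-Cre (106 ± 24.7 against 163 ± 15.7 CPM, log2 fold change -0.63, SE 0.17) and 1.53-fold lower in Myh11-Cre (107 ± 8.74 CPM, -0.62, SE 0.17). The edgeR test did not call it (adjusted p = 0.699 and 0.218), and DESeq2 called it in Myh11-Cre (adjusted p = 0.0231, alternatives 0.0231 to 0.584). The antisense gene Gm10687 overlaps Mcam exons and had 1829 counts over all 9 libraries, against 2844 to 6229 counts of Mcam in each, and no source used here states the strand setting of the counting.

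Rgs5 (ENSMUSG00000026678.10, chromosome 1, 169655501 to 169695813) shortens signals of G protein-coupled receptors and is a common marker of pericytes. It was at 582, 368 and 422 CPM in Wild Type, 423, 382 and 388 CPM in Itga8-Cre mice and 398, 474 and 533 CPM in Myh11-Cre. The groups overlapped throughout, the Wild Type range being the widest. The log2 fold changes were -0.20 (SE 0.20) and 0.03 (SE 0.20). The first rests on Wild Type 1, without which it was -0.0020, and was -0.34 without Wild Type 2. The second ranged from -0.089 to 0.25 when 1 library was left out.

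Kcnj8 and Abcc9 encode the pore and the sulfonylurea receptor of the vascular ATP-sensitive potassium channel, which relaxes smooth muscle when it opens, and lie 16247 bases apart on chromosome 6. Kcnj8 (ENSMUSG00000030247.9, 142564837 to 142571614) was at 20.6, 16.3 and 21.5 CPM in Wild Type, 24.7, 18.1 and 20.0 CPM in Itga8-Cre mice and 19.9, 24.4 and 27.7 CPM in Myh11-Cre. Its log2 fold changes of 0.11 (SE 0.17) and 0.30 (SE 0.17) did not pass, and the first turned to -0.031 without Itga8-Cre 1 and to -0.013 without Wild Type 2. Abcc9 (ENSMUSG00000030249.15, 142587862 to 142702315) was at 135.7, 124 and 136 CPM in Wild Type and 115, 105 and 121 CPM in Itga8-Cre, and these groups did not overlap. In Myh11-Cre it spread from 105 through 153 to 197 CPM, mouse 1 lying below and the other 2 above every Wild Type library. The log2 fold changes were -0.22 (SE 0.20) and 0.20 (SE 0.20), and the second became -0.030 without Myh11-Cre 3.

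**Figure D1:**
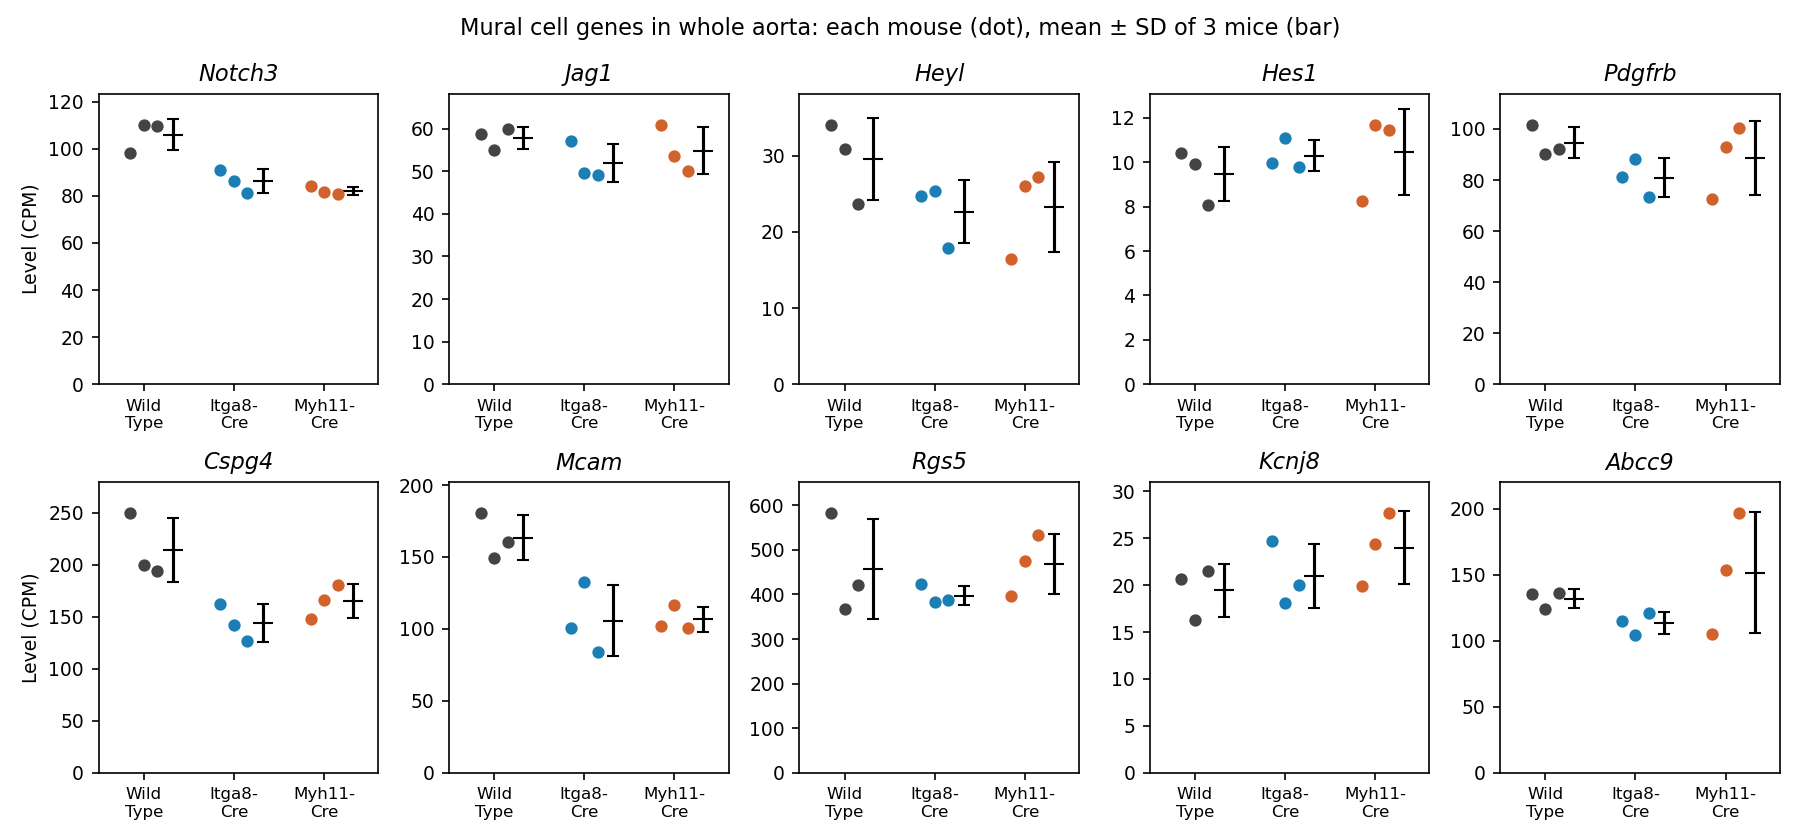
Level of each of the 10 genes in CPM (vertical axis, from 0) by genotype (horizontal axis), with 1 dot per mouse and a bar for mean ± SD of 3 mice. Notch3, Cspg4 and Mcam lie lower in all 6 Cre mice than in the 3 Wild Type mice, while Rgs5 and Hes1 overlap.

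Comparing Itga8-Cre mice with Wild Type mice, edgeR called 0 of the 10 genes at an adjusted p under 0.05, where it called 0% of all 19412 genes. DESeq2 and limma voom also called 0 of the 10. At an unadjusted p under 0.05 there were 3 of 10, Notch3, Cspg4 and Mcam, all lower. Of all genes, 6.78% reached that p, 2.81% lower and 3.97% higher. The 3 Itga8-Cre libraries lay below the 3 Wild Type libraries for 5 of 10 genes (Notch3, Cspg4, Mcam, Pdgfrb and Abcc9), against 5.37% of all genes, and above them for 0 of 10, against 5.76%. The median log2 fold change of the 10 was -0.22, beside 0.04 over all genes tested, with 8 of 10 below 0. The 6 contractile genes summed above went the same way. Their median was -0.70, with 6 of 6 below 0 and 4 of 6 not overlapping and lower. The 10 genes come from the same libraries and overlapping cell types, so they are not independent of each other. They were also chosen with earlier results of these data known, so their shares beside all genes are descriptions in every comparison.

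Comparing Myh11-Cre mice with Wild Type mice, edgeR again called 0 of 10 (0% of all genes), limma voom 0 of 10, and DESeq2 called 2, Notch3 and Mcam, where it called 4.42% of the genes it tested. At an unadjusted p under 0.05 there were 3 of 10, Notch3, Cspg4 and Mcam, all lower, where 9.48% of all genes were lower and 6.93% higher. The same 3 genes were those whose libraries did not overlap, against 14.7% of all genes not overlapping and lower. Without Myh11-Cre 1, the library with the least Acta2, 7 of 10 did not overlap, 3 higher (Abcc9, Kcnj8 and Hes1) and 4 lower (Notch3, Cspg4, Mcam and Jag1). Of all genes, 46.1% did not overlap in that set of 2 against 3 libraries, 22% higher and 24.1% lower. The median log2 fold change of the 10 was -0.09, beside 0.01 over all genes. Both comparisons share the 3 Wild Type libraries, so their values are not independent. Of all genes, 2.43% had all 6 Cre libraries below all 3 Wild Type libraries.

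The direct comparison of the 2 Cre lines asked whether the new line differs from the widely used one in these genes. No difference was called: edgeR, DESeq2 and limma voom called 0 of 10, 0 of 10 had an unadjusted p under 0.05 in edgeR, where 9.48% of all genes did (1.83% lower, 7.64% higher), and groups did not overlap for 0 of 10, against 12.7% of all genes (3.07% lower, 9.65% higher). The difference with the smallest p was Abcc9, at 113 ± 8.33 CPM in Itga8-Cre mice and 152 ± 45.9 CPM in Myh11-Cre (log2 fold change -0.42, SE 0.20, edgeR adjusted p = 0.539). Notch3 and Mcam had log2 differences between the lines of 0.07 (SE 0.09) and -0.01 (SE 0.17). With Myh11-Cre 1 left out, 6 of 10 genes did not overlap, all lower in Itga8-Cre, where 32.9% of all genes did not overlap and 14.6% were lower.

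**Figure D2:**
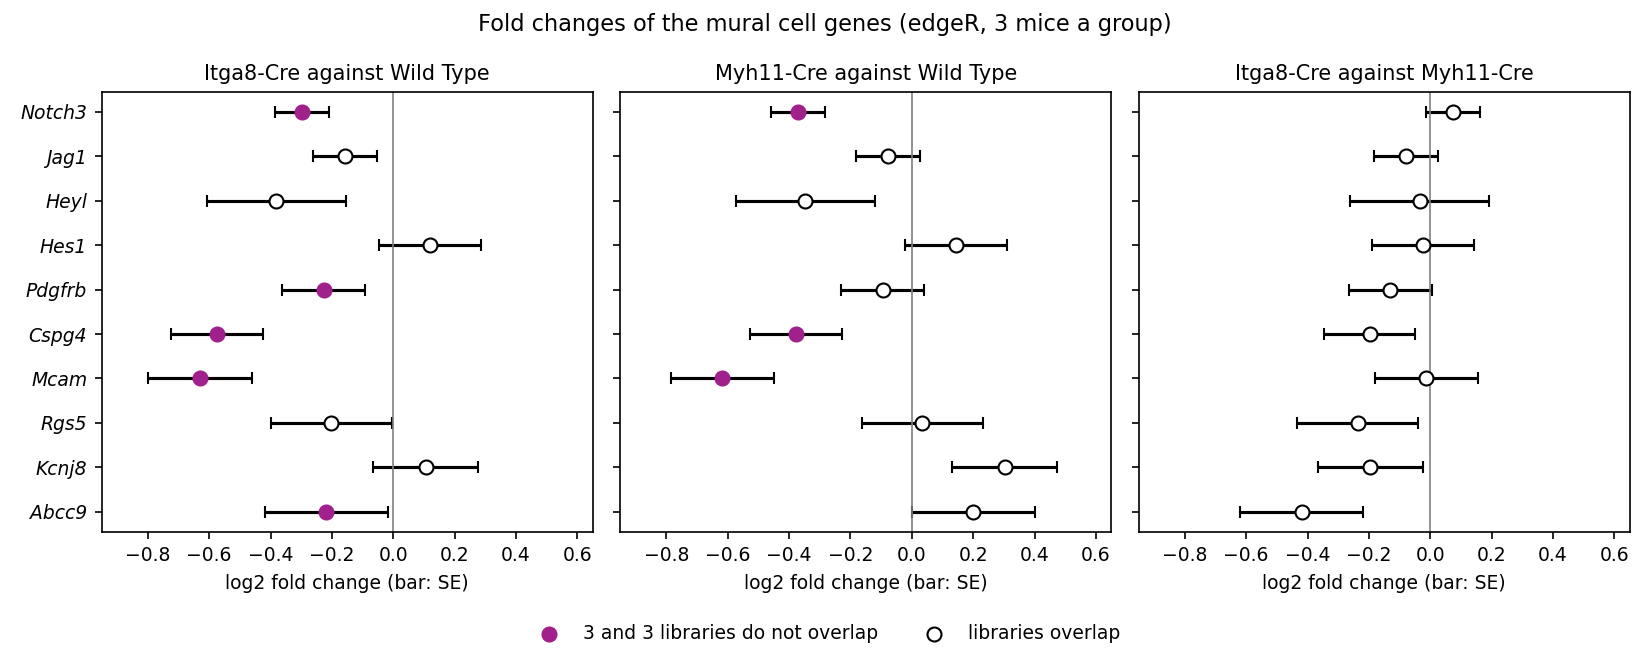
Log2 fold change of each gene (horizontal axis, bars for SE of the edgeR fit) in the 3 comparisons of 3 against 3 mice, with filled dots where the libraries of the groups do not overlap. Mcam has the lowest value against Wild Type, -0.63 in Itga8-Cre and -0.62 in Myh11-Cre, and all dots are open between the Cre lines.

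The share of smooth muscle RNA differed between aortae, so the genes were also set against it. With the mean log2 CPM of the 6 contractile genes as a covariate in the same edgeR fit, Notch3 had log2 fold changes of -0.35 in Itga8-Cre and -0.39 in Myh11-Cre, Mcam -0.55 and -0.58, and Cspg4 -0.45 and -0.33. These were near the values without it and did not pass either (adjusted p = 0.0779 to 0.409). The score itself did not overlap between Itga8-Cre (6.44 to 6.83) and Wild Type (7.04 to 7.89). In that comparison the covariate and the genotype therefore cannot be fully told apart. Rgs5 and Abcc9, below 0 in Itga8-Cre without the covariate, were both at 0.03 with it. As plain log2 ratios to the same contractile score, the 10 genes gave 30 comparisons between groups. Each was tested two-sided by exact permutation, where the smallest p that 3 against 3 mice allow is 0.1. It was reached for 2 of them, adjusted p = 0.783 over the 30. The log2 ratio of Rgs5 averaged 1.95 ± 0.29 for Itga8-Cre, against 1.47 ± 0.17 for Wild Type, and that of Hes1 was -3.32 ± 0.19 and -4.10 ± 0.39, so both were higher against the contractile genes in all 3 Itga8-Cre mice. That of Notch3 averaged -0.26 ± 0.28 for Itga8-Cre, against -0.61 ± 0.57 for Wild Type, an overlapping pair in the opposite order to its level. The difference in this ratio between Itga8-Cre and Wild Type was 0.00012 for Mcam (exact permutation p = 1) and 0.079 for Cspg4 (exact permutation p = 0.9), so neither was lower relative to the contractile genes by this measure. In Myh11-Cre it was -0.11 for Notch3, -0.36 for Mcam and -0.12 for Cspg4 (exact permutation p = 1, 0.6 and 0.8). The contractile score, the denominator, was highest of all 9 in Wild Type 1.

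Across the 9 libraries the genes followed Acta2, the smooth muscle actin, to very different degrees. Permutations ran over all 9 libraries regardless of genotype, so differences between genotypes enter the p-values below. Of 27 relations fixed for the analysis (each gene with Acta2, each with the endothelial Pecam1, and 7 pairs among them), 0 passed by Pearson and 1 by Spearman after Benjamini-Hochberg adjustment. That was Pdgfrb with Acta2 (Pearson r = 0.85, exact permutation p = 0.00471, adjusted p = 0.0785; Spearman rho = 0.97, exact permutation p = 0.000165, adjusted p = 0.00446, n = 9), and r was 0.83 without the 2 libraries farthest from the median of Acta2. Rgs5 with Acta2 had r = 0.83 (exact permutation p = 0.00581, adjusted p = 0.0785) and rho = 0.60 (p = 0.0968, adjusted p = 0.238), and r = 0.61 without those 2. Notch3 with Acta2 had r = 0.05 (exact permutation p = 0.888, adjusted p = 0.888) and rho = 0.07 (p = 0.88, adjusted p = 0.914). Over deviations from group means, its r with Acta2 was -0.74. The neighbours Kcnj8 and Abcc9 had r = 0.67 (exact permutation p = 0.0454, adjusted p = 0.175) and rho = 0.62 (p = 0.0857, adjusted p = 0.231). That relation rests on Myh11-Cre 2 and 3, without which r was 0.12. Notch3 had r = 0.47 with Heyl (exact permutation p = 0.199, adjusted p = 0.358; rho = 0.27, p = 0.493, adjusted p = 0.634) and -0.45 with Hes1 (exact permutation p = 0.214, adjusted p = 0.361; rho = -0.42, p = 0.27, adjusted p = 0.428).

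**Figure D3:**
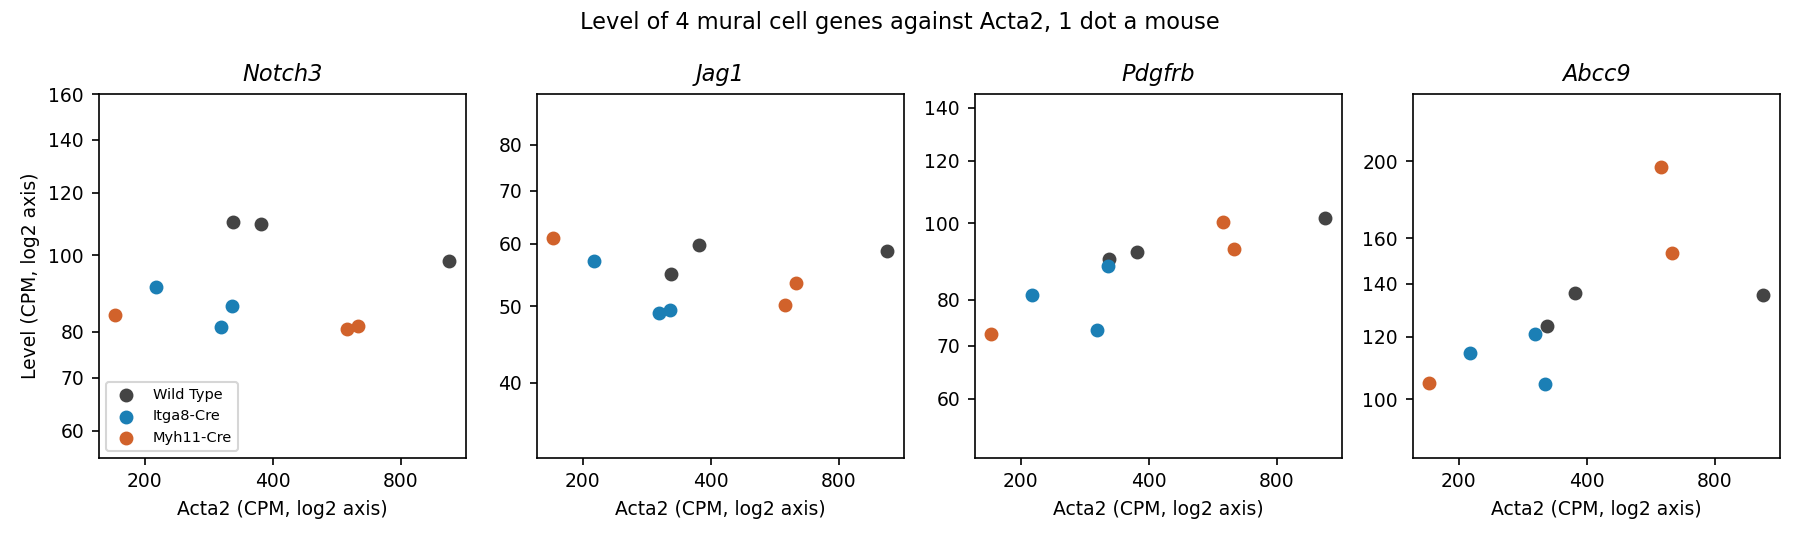
Level of Notch3, Jag1, Pdgfrb and Abcc9 (vertical axis, CPM on a log2 axis) against Acta2 (horizontal axis, CPM on a log2 axis), with 1 dot per mouse coloured by genotype. Pdgfrb is higher where Acta2 is higher (r = 0.85 over 9 libraries). Notch3 shows no such order over the 9 libraries (r = 0.05) and separates Wild Type from both Cre lines. Over deviations from group means, r was 0.80 for Pdgfrb and -0.74 for Notch3.

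Of 42 other genes of the Notch pathway, 39 were tested and 0 passed in edgeR in any comparison. Against Wild Type their medians were -0.02 in Itga8-Cre and -0.06 in Myh11-Cre, with 18 and 17 of 39 above 0. At an unadjusted p under 0.05 there were 3 higher and 2 lower in Itga8-Cre, and 1 higher and 4 lower in Myh11-Cre. Of all genes, 3.97% were higher and 2.81% lower at that p in the first comparison, and 6.93% and 9.48% in the second, near the share of the 39 in Myh11-Cre. The other receptors had mean levels over 3 mice that differed little between genotypes, and their libraries overlapped: Notch1 was at 107, 111 and 103 CPM and Notch2 at 161, 177 and 174 CPM in Wild Type, Itga8-Cre and Myh11-Cre, and Notch4 at 33.8, 33.7 and 30.9 CPM. The ligand Jag2 had means of 23.0, 23.3 and 25.1 CPM. Rbpj, the DNA-binding partner, had log2 fold changes of 0.08 (SE 0.13) and -0.03 (SE 0.13) against Wild Type. The endothelial ligand Dll4 had means of 14.7, 12.6 and 11.5 CPM.

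The Hey repressors Hey2 and Hey1, both Notch targets of arterial cells, lay on opposite sides of 0. Hey2 was at 11.4, 11.7 and 11.2 CPM in Wild Type, 9.35, 8.77 and 5.87 CPM in Itga8-Cre mice and 7.22, 7.32 and 8.36 CPM in Myh11-Cre, so all 6 Cre libraries lay below Wild Type. The log2 fold changes were -0.52 (SE 0.18) and -0.58 (SE 0.18), with edgeR adjusted p values of 0.699 and 0.225 that did not pass, and DESeq2 gave 0.0587 in Myh11-Cre. Hey1, by contrast, was at 5.48, 5.71 and 4.87 CPM in Wild Type and 5.69 to 9.20 CPM in the Cre libraries, with log2 fold changes of 0.38 (SE 0.20) and 0.42 (SE 0.20), the first being 0.11 without Itga8-Cre 3. Nrarp, a feedback inhibitor induced by Notch, had -0.45 (SE 0.20) and -0.49 (SE 0.20). The ligand Dll1 had -0.45 (SE 0.18) in Itga8-Cre. Dll1 also lay below Wild Type in Myh11-Cre, at 6.16, 7.03 and 6.77 against 8.95, 8.17 and 8.17 CPM.

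Adam17, a protease that can cut Notch receptors at the cell surface, was at 61.7, 67.0 and 60.4 CPM in Itga8-Cre against 55.8, 47.7 and 50.9 CPM in Wild Type (log2 fold change 0.29, SE 0.09, edgeR adjusted p = 0.699). Lfng, a glycosyltransferase that alters which ligands a Notch receptor answers, was at 23.6, 18.7 and 23.3 CPM in Wild Type, 27.9, 38.3 and 27.2 CPM in Itga8-Cre mice and 24.6, 19.9 and 23.3 CPM in Myh11-Cre. It lay above both other genotypes in all 3 Itga8-Cre mice (0.51 against Wild Type and 0.46 against Myh11-Cre, SE 0.16 each) and did not pass (edgeR adjusted p = 0.699 and 0.521). Without Itga8-Cre 2 these values were 0.33 and 0.28. In Myh11-Cre, Snw1, a cofactor in Notch transcription complexes, had 0.23 (SE 0.09) and Dtx3 -0.32 (SE 0.13). Between the Cre lines, Dtx1 had 0.69 (SE 0.26; 0.37 without Itga8-Cre 2), Kdm5a 0.20 (SE 0.09) and Aph1b -0.25 (SE 0.11).

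**Figure D4:**
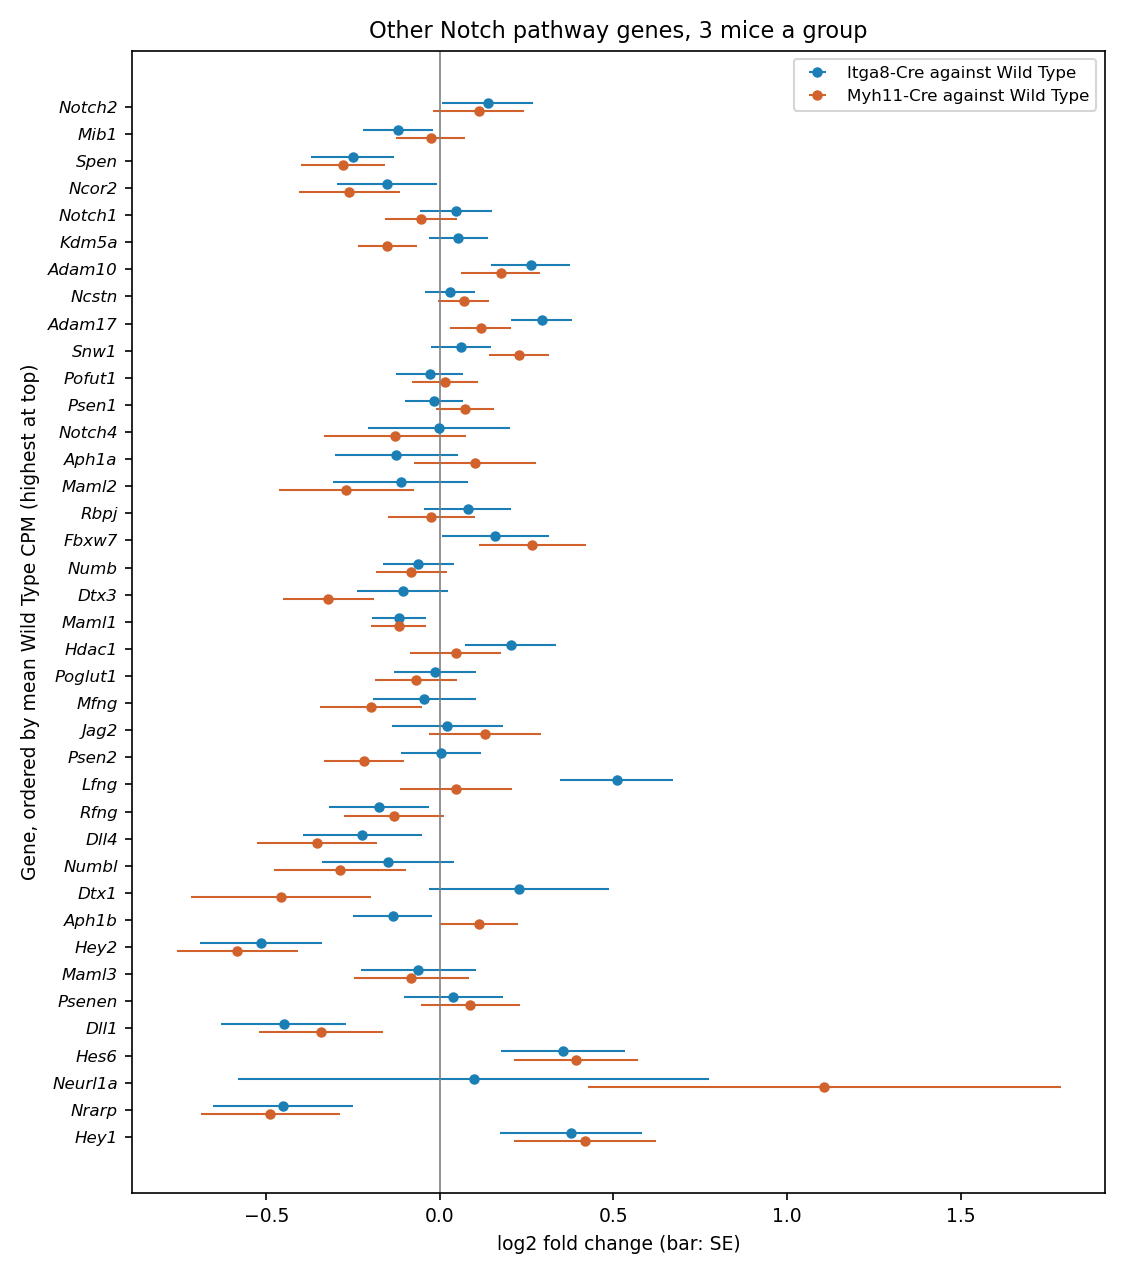
Log2 fold change (horizontal axis, bars for SE of the edgeR fit, 3 mice a group) of the 39 other tested Notch pathway genes, ordered by mean Wild Type CPM (vertical axis), in Itga8-Cre and in Myh11-Cre against the same Wild Type mice. Hey2, Dll1 and Nrarp lie below 0 and Hey1 above 0 in both, and Lfng is set off in Itga8-Cre (0.51).

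Of 32 further genes used to recognise pericytes, 31 were tested and 0 passed in edgeR. Their medians were -0.11 in Itga8-Cre and 0.12 in Myh11-Cre against Wild Type, and 3 genes (0 higher, 3 lower) and 8 genes (3 higher, 5 lower) had an unadjusted p under 0.05, where 6.78% and 16.4% of all genes had. Rgs4, a relative of Rgs5, was at 30.6, 38.3 and 47.5 CPM in Wild Type, 21.3, 31.6 and 21.7 CPM in Itga8-Cre mice and 18.3, 22.3 and 20.3 CPM in Myh11-Cre (log2 fold changes -0.64, SE 0.20, and -0.93, SE 0.20). In Myh11-Cre all 3 mice lay below Wild Type, and in Itga8-Cre mouse 2 overlapped it. S1pr3, a sphingosine phosphate receptor of smooth muscle, had -0.50 (SE 0.14) in Myh11-Cre and 0.33 (SE 0.14) in Itga8-Cre against Myh11-Cre. Nes, an intermediate filament gene, had -0.52 (SE 0.18) in Itga8-Cre. Every Cre library of both lines lay below Wild Type in Nes, at 42.1, 55.9 and 58.6 CPM in Myh11-Cre against 82.4, 66.1 and 62.8 CPM. Steap4 had -0.80 (SE 0.32) in Itga8-Cre, which rests on Wild Type 1 at 347 CPM and was -0.29 without it. Foxd1 had -1.06 (SE 0.50) from 3 to 13 counts per library. In Myh11-Cre the odorant receptor gene Olfr78 had -0.91 (SE 0.33). Between the Cre lines Art3 had -0.49 (SE 0.17), Olfr78 0.67 (SE 0.33) and Ggt1 0.85 (SE 0.50).

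Des, the muscle intermediate filament gene, had a log2 fold change of 1.76 (SE 0.64) in Myh11-Cre, at 124, 605 and 729 CPM against 99.6, 185 and 146 CPM in Wild Type. Acta1 of skeletal muscle was at 4.57, 2383 and 3636 CPM in the same 3 Myh11-Cre mice. Of the relatives of the vascular channel genes, Kcnj11, Abcc8, Kcnj2, Kcnj12 and Kcnj15 were likewise lowest in mouse 1 among the Myh11-Cre mice. Kcnj12 was at 3.34, 9.29 and 9.82 CPM and Kcnj15 at 2.98, 5.96 and 3.44 CPM in Myh11-Cre. Kcnj16, by contrast, was lowest in mouse 3, at 0.602, 0.632 and 0.417 CPM. Kcnj11, the pore gene of the channel in pancreas and striated muscle, was at 10.5, 26.7 and 26.6 CPM in Myh11-Cre mice and 7.01, 14.6 and 6.66 CPM in Wild Type, and Abcc8, its usual partner, was at 7.03, 22.0 and 21.1 against 4.61, 9.97 and 3.88 CPM. Kcnj2 was at 6.27, 27.1 and 35.3 against 4.98, 9.36 and 7.47 CPM. Summed cardiac muscle markers were at 1759, 4770.2 and 1631 CPM in Wild Type, 2104, 8552 and 2249.6 CPM in Itga8-Cre and 3096, 9285 and 8575 CPM in Myh11-Cre. Kcnj11, at 8.01, 20.7 and 9.47 CPM in Itga8-Cre, and Abcc8, at 5.89, 21.5 and 5.10 CPM, were highest there in mouse 2, as the cardiac markers were, while Acta1 was highest in mouse 3 (22.1, 384 and 1501 CPM). The part of skeletal or cardiac muscle in these values was not tested. Of 7 relatives, 6 were tested and 0 passed in edgeR, with medians of 0.36, 1.00 and -0.59 in Itga8-Cre against Wild Type, Myh11-Cre against Wild Type and Itga8-Cre against Myh11-Cre. In Itga8-Cre, Kcnj15 had -0.78 (SE 0.39), or -0.43 without Wild Type 1.

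The genes most alike in pattern were sought by Pearson r of log2 CPM over the 9 libraries, among 13740 named genes with a mean of at least 1 CPM. For Notch3 these were Syn3, Zfp703, Carf, Map6 and Pusl1, with r from 0.967 to 0.972 and Spearman rho from 0.95 to 0.983. For Kcnj8 they were St7, Anapc11, Rabac1, Cpa3 and Snrnp27, with r from 0.906 to 0.965 and rho from 0.85 to 0.933. Neither list held another of the 10 genes. The libraries share tissue make-up and these were the highest of many values, so they are given as a description only.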

How the data were processed

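Polyadenylated RNA of whole aortae was sequenced in 9 libraries (TruSeq Stranded mRNA, single-end reads). All values here start from the whole-number counts by gene symbol that the authors deposited. Their table of size-factor scaled values was not used. Per the submitters' processing notes, the tools included STAR 2.7.0f, Salmon 0.13.1, featureCounts (Subread 1.6.4), fastp 0.20.0 and DESeq2, on GRCm38.p6. The sources used here give neither annotation release nor strand setting.

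Counts were analysed with R 4.3.3 and edgeR 4.0.16: filterByExpr, TMM factors, 1 group-means fit over all 9 libraries with robust quasi-likelihood dispersion, F tests, and Benjamini-Hochberg adjustment over 19412 genes at 0.05. DESeq2 1.42.0 and limma 3.58.1 (voom) were alternatives. SE is the log2 fold change divided by the root of F. Positions and exon lengths are from GENCODE M21. Total counts were 31419238 to 42497543 per library. The pipeline was tested on simulated data.

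The members and gene lists were chosen with earlier results of these data known. All 10 members are described. Of the Notch pathway, pericyte and channel lists, the close relatives of members and up to 4 genes with the smallest p are named. Mouse numbers were not taken as pairs: of 9 same-numbered pairs across genotypes, 5 had a residual correlation over 0.1 (range 0.03 to 0.40, others -0.35 to 0.24). Alternatives changed normalization, filter, tool, covariates and libraries.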

Additional observations from a re-analysis of the deposited data

How the results depend on the processing

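Each of the 10 genes had at least 301 counts in every library, and the precision is set mainly by having 3 mice per genotype. The log2 fold changes of Notch3, Cspg4 and Mcam against Wild Type stayed negative in every alternative fit. Their ratios to the contractile score did not: in Itga8-Cre against Wild Type the differences were 0.35, 0.079 and 0.00012. Where a value turned or moved, the cause was not tested except as stated.

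DESeq2 called 30 genes in Itga8-Cre and 830 in Myh11-Cre against Wild Type, 2 of the latter among the 10 (Notch3 and Mcam), and 19 between the Cre lines. In Myh11-Cre against Wild Type, 1 gene was called with library totals alone, with no filter, with the brown fat score as covariate and with mouse number as a replicate block, which called 0 members and changed no other call. The contractile covariate gave 216 calls (33 higher, 183 lower). Between the Cre lines, 1 gene was called with library totals alone and with the brown fat covariate. Library totals alone shifted the median of all genes by -0.12 in Myh11-Cre against Wild Type and by 0.12 between the Cre lines. They turned Rgs5 in Myh11-Cre to -0.076 and, between the Cre lines, Mcam to 0.12, Jag1 to 0.039, Heyl to 0.070 and Hes1 to 0.088. The brown fat covariate turned Rgs5 in Myh11-Cre to -0.015. The contractile covariate turned Rgs5 in Itga8-Cre to 0.030, Abcc9 there to 0.033 and, between the Cre lines, Mcam to 0.036, Heyl to 0.17 and Hes1 to 0.12. In a fit of the 2 Cre lines alone, Notch3 did not overlap and was higher in Itga8-Cre, the 1 member to do so. Of all genes in that fit, 12.6% did not overlap, 8.71% higher and 3.91% lower.

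Both settings that follow were chosen after the data were seen. Without Itga8-Cre 1 and Myh11-Cre 1, lowest in contractile genes, 265 genes were called in Myh11-Cre against Wild Type (234 higher, 31 lower), 7 members did not overlap there (46.7% of all genes) and 8 did not between the Cre lines (54.7% of all genes). Kcnj8 in Itga8-Cre became -0.050 and Pdgfrb in Myh11-Cre 0.024. With the 3 libraries highest in Acta1 left out (mouse 3 of Itga8-Cre, mice 2 and 3 of Myh11-Cre), 1 Myh11-Cre library is left and assumed to vary like the other groups. Then 1 gene was called in Myh11-Cre against Wild Type and 1 between the Cre lines, and 7 and 5 members did not overlap, where 66.8% and 67.6% of all genes did not. In Myh11-Cre, Rgs5 became -0.20, Abcc9 -0.33, Jag1 0.078 and Hes1 -0.20. Between the Cre lines, Cspg4 became 0.029, Pdgfrb 0.21, Rgs5 0.0054, Kcnj8 0.091, Abcc9 0.050, Mcam 0.17, Heyl 0.59 and Hes1 0.34.

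Leaving out 1 library at a time, the members not overlapping ranged from 3 to 7 in Myh11-Cre against Wild Type and from 0 to 6 between the Cre lines. The share of all genes not overlapping also moved, from 25.9% to 46.1% and from 12.6% to 34.5%. Log2 fold changes that turned ranged from -0.031 to 0.19 for Kcnj8 in Itga8-Cre, from -0.19 to 0.030 for Pdgfrb, -0.089 to 0.25 for Rgs5 and -0.030 to 0.41 for Abcc9 in Myh11-Cre. Between the Cre lines they ranged from -0.22 to 0.11 for Mcam, -0.23 to 0.093 for Heyl, -0.16 to 0.00189 for Jag1 and -0.17 to 0.049 for Hes1. Ratios to the contractile score that turned ranged, in Itga8-Cre against Wild Type, from -0.14 to 0.22 for Cspg4 and -0.20 to 0.20 for Mcam. In Myh11-Cre against Wild Type they ranged from -0.60 to 0.15 for Notch3, -0.51 to 0.10 for Cspg4, -0.18 to 0.33 for Pdgfrb, -0.050 to 0.51 for Rgs5, -0.37 to 0.49 for Jag1 and -0.35 to 0.077 for Heyl. Between the Cre lines they ranged from -0.021 to 0.59 for Cspg4, -0.040 to 0.52 for Rgs5, -0.048 to 0.54 for Kcnj8 and -0.17 to 0.25 for Abcc9. Without the 2 libraries farthest from the median, r became -0.46 for Jag1 with Pecam1 and -0.10 for Notch3 with Pdgfrb. From deviations from group means, r became -0.74 for Notch3 with Acta2, -0.13 for Notch3 with Heyl and -0.26 for Notch3 with Pdgfrb.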

Other observations

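Notch3 was set against Acta2 within genotypes after the values were seen. Wild Type 1 had the most Acta2 (1038 CPM) and the least Notch3 (98.3 CPM) of its group, and the libraries lowest in Acta2 in the Cre lines, Itga8-Cre 1 (213 CPM) and Myh11-Cre 1 (171 CPM), had the most Notch3 of theirs (91.2 and 84.0 CPM). The order was not fully reversed in the Cre lines: mouse 2 had the most Acta2 (320.0 and 635 CPM) and mouse 3 the least Notch3 (81.2 and 80.6 CPM) in both. Over deviations of the 9 libraries from their group means, r was -0.74 for Notch3 and -0.54 for Jag1 with Acta2, and 0.80 for Pdgfrb, 0.82 for Rgs5 and 0.80 for Hes1. For Mcam, r of deviations was 0.84 with the endothelial gene Pecam1 and 0.37 with Acta2. These values share libraries and tissue make-up and are given as descriptions.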
